A study of Mus musculus with 22 samples.

Results

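Adra2a, Adra2c, Calcr, Hcrtr1 and Oprm1 encode receptors by which other neurons, hormones and noradrenaline itself act on the noradrenergic neurons of the locus coeruleus, and they were taken by name. Of these 5 genes, 4 are among the 12596 genes of the table, and Oprm1, the µ-opioid receptor, was not analysed here. The study infused mice with human tyrosinase (hTyr), an enzyme that makes pigment, or with the fluorescent protein EYFP as control. All animals came from a C57Bl/6 cross of Th-cre, which expresses Cre recombinase under the tyrosine hydroxylase gene, with Slc6a2-eGFP/Rpl10a, which puts a green tag on ribosomes in cells that use the noradrenaline transporter gene. The 4 groups were the immunoprecipitates of tagged ribosomes (IP, labelled noradrenergic) from 5 hTyr and 6 EYFP animals, and the RNA before the immunoprecipitation (input, labelled total hindbrain) from the same animals. Age, sex, time after the infusion and pooling are not given in the sources used here, and the controls carry the Cre and the ribosome tag as well. Which cells yielded tagged ribosomes rests on the Slc6a2 transgene. The labels given above, noradrenergic and total hindbrain, do not restrict the RNA to the locus coeruleus.

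The locus coeruleus is the main source of noradrenaline in the forebrain. Its neurons restrain themselves through Adra2a, the α2A-adrenoceptor, which couples to inhibitory G proteins, opens inwardly rectifying potassium channels and lowers adenylyl cyclase activity. Adra2c, the α2C-adrenoceptor, uses the same G proteins and is found in many other neurons. Hcrtr1, an orexin receptor, receives the wake-promoting input of hypothalamic orexin neurons and excites through the Gq class of G proteins. Calcr, the calcitonin receptor, couples mainly to Gs, the class that stimulates adenylyl cyclase, and forms amylin receptors with RAMP proteins.

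In the GRCm38 annotation Adra2a lies on the plus strand of chromosome 19 (54044151 to 54048982) with 2 transcripts, and Adra2c on the plus strand of chromosome 5 (35278319 to 35281763) with 1 transcript of a single exon. Calcr lies on the minus strand of chromosome 6 (3685680 to 3764714) with 5 transcripts, and Hcrtr1 on the minus strand of chromosome 4 (130130217 to 130139359) with 4. Calcr and Hcrtr1 were the receptors that rose in the IP, and the sequence before their annotated starts is shown for that reason, from RefSeq on GRCm38.p6, 5′ to 3′, where it holds no annotated exon. The windows are chr6:3763631-3763873 on the minus strand and chr6:3764715-3764963 on the minus strand for both starts of Calcr, and chr4:130138552-130138801 on the minus strand for a start of Hcrtr1. Capitals mark TGACG (a half-site of the cAMP response element) and GGGCGG (a GC box), searched on both strands.
Calcr, upstream of the inner start: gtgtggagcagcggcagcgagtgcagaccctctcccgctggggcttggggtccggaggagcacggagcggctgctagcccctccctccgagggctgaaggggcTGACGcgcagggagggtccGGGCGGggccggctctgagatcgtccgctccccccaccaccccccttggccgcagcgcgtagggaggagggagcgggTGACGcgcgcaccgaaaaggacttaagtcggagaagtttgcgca
Calcr, upstream of the outer start: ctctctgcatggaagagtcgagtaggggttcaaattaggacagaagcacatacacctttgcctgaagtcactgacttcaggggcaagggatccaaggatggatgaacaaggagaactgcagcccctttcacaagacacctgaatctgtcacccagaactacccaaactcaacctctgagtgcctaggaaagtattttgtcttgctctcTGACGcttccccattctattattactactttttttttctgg
Hcrtr1, upstream of a start: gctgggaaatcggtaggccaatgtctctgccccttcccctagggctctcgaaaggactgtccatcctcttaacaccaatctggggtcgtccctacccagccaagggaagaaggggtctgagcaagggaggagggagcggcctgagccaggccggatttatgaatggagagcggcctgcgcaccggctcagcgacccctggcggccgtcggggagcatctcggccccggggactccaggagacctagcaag
The inner Calcr start has TGACG at 147 and 51 bases and GGGCGG at 128 bases before it, and the outer start has TGACG at 42 bases. These distances are counted from the start itself. Annotated exon bases next to the start were left out, so the printed Calcr sequences end 7 bases (inner) and 1 base (outer) short of it. The Hcrtr1 window holds neither. Of 32851 mouse windows of 250 bases before a start, 17.8% hold TGACG and 32.7% hold GGGCGG. The half-site is part of the full element TGACGTCA, which 1.55% of windows hold and the 3 windows shown do not. These matches describe letters only. The windows of Adra2a, Adra2c and the other Hcrtr1 starts overlap annotated exons and are not shown. Searched in the same way, the Adra2a window holds TGACG at 69 and GGGCGG at 102 bases before the start. Those of Adra2c and the other Hcrtr1 starts hold neither. A link between these letters and the rise in IP was not tested.

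Library depth, as reads in the table, ran from 12654489 to 19043798 in hTyr IP, 15680491 to 20368032 in EYFP IP, 18771136 to 25100142 in hTyr input and 16988860 to 21480570 in EYFP input. Levels are log2 CPM, read counts scaled to library size, on a log scale. The label of the IP was checked with noradrenergic genes: 10 of 12 in the table passed the threshold as higher in IP in each treatment, with Gata3 and Slc31a1 the exceptions. Dbh, which makes noradrenaline, rose by 4.02 (16.3-fold) in EYFP animals. Markers of other cells were not at 0. In EYFP IP Slc17a6 (glutamatergic neurons) rose by 1.08 while Slc17a7 was at -0.43 and did not pass. Of 3 cholinergic genes Slc5a7 and Chat rose, by 1.27 and 0.55, and Slc18a3 was at -0.04. Of 3 serotonergic genes Tph2 and Slc6a4 rose, by 1.23 and 0.41, and Fev fell by 0.55. The mean over 24 glial genes was 6.82 ± 0.20 in EYFP IP and 6.79 ± 0.15 in EYFP input (SD, n = 6). The part that this RNA takes in the receptors' values was not tested. In bulk samples fewer cells of a type and less RNA per cell cannot be told apart.

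Calcr had the widest gap between IP and input of the 4 receptors. In EYFP IP it stood between 2.86 and 4.25 log2 CPM (median 3.15, 138 to 315 reads), and in EYFP input between 0.34 and 1.19 (median 1.02, 24 to 44 reads). In the 5 hTyr IP libraries, IP_501, IP_502, IP_508, IP_509 and IP_510, it stood at 4.26, 3.46, 3.0, 2.61 and 3.22. The input libraries of the same animals, Pre_501 to Pre_510 in that order, stood at 0.52, 1.02, 0.62, 0.77 and 1.19. Every IP library lay above every input library, and IP_501 and IP_504 had the highest levels. Calcr rose in IP by 2.42 in EYFP animals (SE 0.23, 5.35-fold, 95% interval 3.84 to 7.46, limma adjusted p = 9.99e-07) and by 2.49 in hTyr animals (SE 0.28, 5.60-fold, 3.73 to 8.41, limma adjusted p = 1.59e-06). In linear terms that is a mean of 10.7 CPM in EYFP IP against 1.93 CPM in EYFP input. Calcr input rests on few reads, on average 35 per EYFP library, where counting alone gives an SD of 0.24 log2 against the 0.32 found between animals. With a pseudocount of 5 CPM the rise in EYFP came to 1.14.

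Hcrtr1 rose less and with a narrower spread. EYFP IP ran from 3.88 to 4.68 log2 CPM (median 4.33, 282 to 425 reads) and EYFP input from 3.25 to 3.59 (median 3.36, 195 to 206 reads). The hTyr libraries IP_501, IP_502, IP_508, IP_509 and IP_510 stood at 4.94, 4.95, 4.26, 4.15 and 4.04, and their input libraries at 3.43, 3.52, 3.32, 3.28 and 3.24. No input library of either treatment reached the lowest IP library. Among the hTyr IP libraries IP_501 and IP_502 lay above the other 3. The rise in IP was 0.94 in EYFP animals (SE 0.12, 1.91-fold, 95% interval 1.61 to 2.27, limma adjusted p = 8.37e-06) and 1.11 in hTyr animals (SE 0.17, 2.16-fold, 1.68 to 2.77, limma adjusted p = 4.34e-05).

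**Figure D1:**
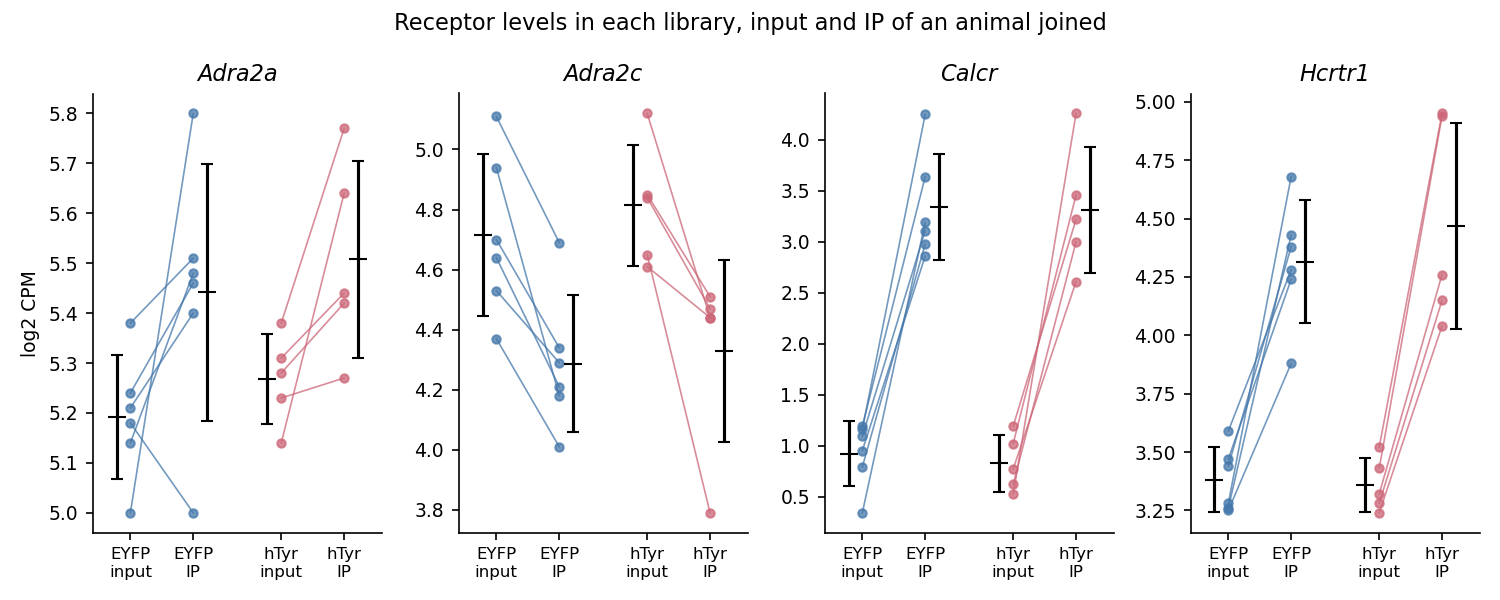
Level of each receptor gene in every library (vertical axis, log2 CPM, a separate scale per gene), with input and IP of the same animal joined by a line, EYFP in blue and hTyr in red, and the mean with its SD in black beside each group. Lines rise for Calcr and Hcrtr1 in 11 of 11 animals and fall for Adra2c in 11 of 11, while those of Adra2a rise in 10 of 11.

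Adra2a, the autoreceptor, was nearly as high in input as in IP. EYFP IP ran from 5.0 to 5.80 log2 CPM (median 5.47, 614 to 925 reads) and EYFP input from 5.0 to 5.38 (median 5.19, 653 to 792 reads). In hTyr animals IP_501, IP_502, IP_508, IP_509 and IP_510 stood at 5.77, 5.64, 5.27, 5.42 and 5.44, and their input libraries at 5.38, 5.14, 5.23, 5.28 and 5.31. The groups overlap in both treatments. The difference of 0.25 in EYFP animals (SE 0.11, 1.19-fold, 95% interval 1.02 to 1.39) did not pass the threshold (limma adjusted p = 0.0531), nor did that of 0.24 in hTyr animals (SE 0.10, limma adjusted p = 0.0508). With the animal as a replicate block both passed (limma adjusted p = 0.0255 and 0.0347), as did 64.6% and 59.1% of all genes with that block. Within animals IP exceeded input in 10 of 11, by between 0.04 and 0.80, and the animal of IP_511 had the opposite sign (-0.18). Without that animal the EYFP difference was 0.33 (limma adjusted p = 0.00782), and without the animal of IP_508 the hTyr difference was 0.29 (limma adjusted p = 0.0422). Without the animal of IP_504 the EYFP difference was 0.14 (limma adjusted p = 0.251), and without that of IP_502 the hTyr difference was 0.18 (limma adjusted p = 0.233).

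Adra2c was lower in IP than in input. It ran from 4.01 to 4.69 log2 CPM in EYFP IP (median 4.25, 266 to 437 reads) and from 4.37 to 5.11 in EYFP input (median 4.67, 425 to 714 reads), and these groups overlap. In hTyr animals IP_501, IP_502, IP_508, IP_509 and IP_510 stood at 4.47, 4.44, 4.51, 4.44 and 3.79 and their input libraries at 4.84, 4.61, 4.85, 5.12 and 4.65, which do not overlap. IP_510 had the lowest IP level of the 11 animals. Adra2c fell by 0.43 in EYFP IP on the log2 scale (SE 0.13, 1.35-fold lower, limma adjusted p = 0.00883) and by 0.48 in hTyr IP (SE 0.14, 1.40-fold lower, limma adjusted p = 0.00797). The difference had the same sign in 11 of 11 animals, between -0.86 and -0.18.

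Counted together, 3 of the 4 receptors passed in IP against input in each treatment, 2 higher and 1 lower, and 4 of 4 had an unadjusted p under 0.05, as did 61.6% and 59.6% of all genes. Of all 12596 genes 56.5% passed in EYFP animals (28.5% higher, 28.1% lower) and 54.4% in hTyr animals (27.4% higher, 27.0% lower). A count of 3 in 4 is therefore near what a gene of the table shows in this contrast, and the receptors differed in the size of the difference. Calcr and Hcrtr1 were at percentiles 100 and 96.4 of the EYFP log2 differences of all genes, Adra2a at 72.7 and Adra2c at 13.9. IP libraries all above input libraries, as for Calcr and Hcrtr1, occurred in 16.7% of genes in EYFP animals and 20.7% in hTyr animals, and IP all below input, as for Adra2c in hTyr animals, in 16.8%. The median difference of the 4 was 0.59 in EYFP and 0.68 in hTyr animals, against -0.03 and -0.04 over all genes. With the animal as a replicate block 4 of the 4 receptors passed in each treatment, beside 64.6% and 59.1% of all genes.

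The order of the log2 differences was the same in each animal. Dbh exceeded Calcr, Calcr exceeded Hcrtr1, Hcrtr1 exceeded Adra2a and Adra2a exceeded Adra2c in 11 of 11 animals. This order was read from the same values and was not tested. Th had no fixed place beside Calcr. It was below Calcr in the animal of IP_501 (3.58 against 3.74) and above it in that of IP_509 (2.68 against 1.84). Over the 11 animals the mean difference was 4.15 ± 0.59 for Dbh, 2.45 ± 0.58 for Calcr, 1.02 ± 0.31 for Hcrtr1, 0.25 ± 0.26 for Adra2a and -0.45 ± 0.22 for Adra2c (SD). Calcr ranged from 1.84 in the animal of IP_509 to 3.74 in that of IP_501, and Hcrtr1 from 0.63 in the animal of IP_511 to 1.51 in that of IP_501.

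**Figure D2:**
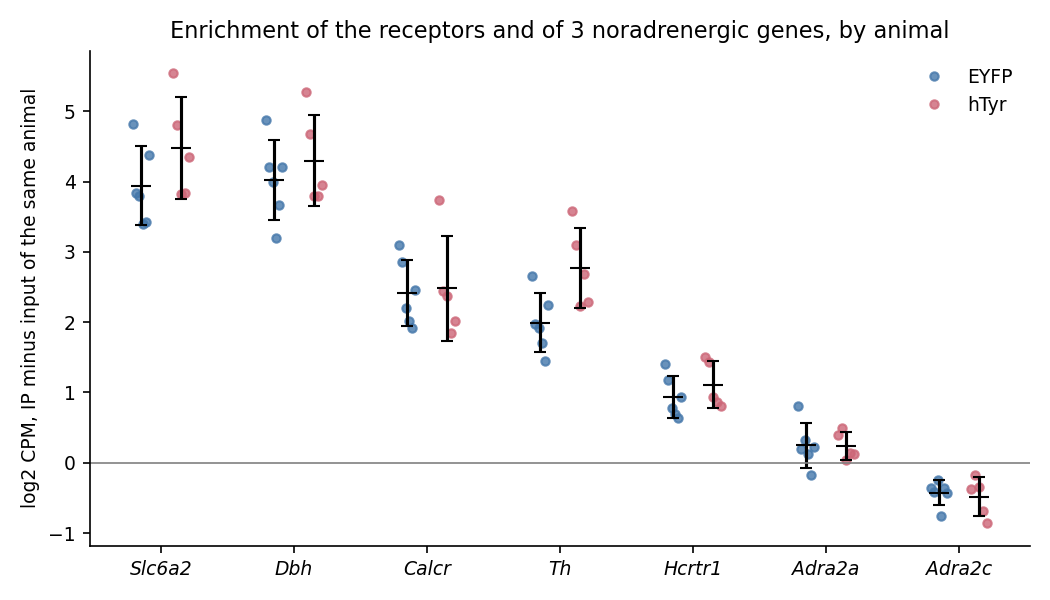
IP minus input of the same animal (vertical axis, log2 CPM) for the 4 receptors and the noradrenergic genes Slc6a2, Dbh and Th, a point per animal (EYFP blue, hTyr red) with the mean and SD in black. Calcr lies between 1.84 and 3.74, Hcrtr1 between 0.63 and 1.51, Adra2a on both sides of 0 and Adra2c between -0.86 and -0.18.

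Among the G protein-coupled receptors of the lists in the table, 38 genes, Calcr ranked 1 and Hcrtr1 ranked 2 by their difference in EYFP animals. Npy2r, a neuropeptide Y receptor, came next at 0.75 and did not pass (limma adjusted p = 0.0667). Adra2a ranked 12 and Adra2c ranked 33, while Hrh2, a histamine receptor, was lowest at -0.92. No test of the ranks was made, and the members and lists were chosen with earlier results of these data known.

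**Figure D3:**
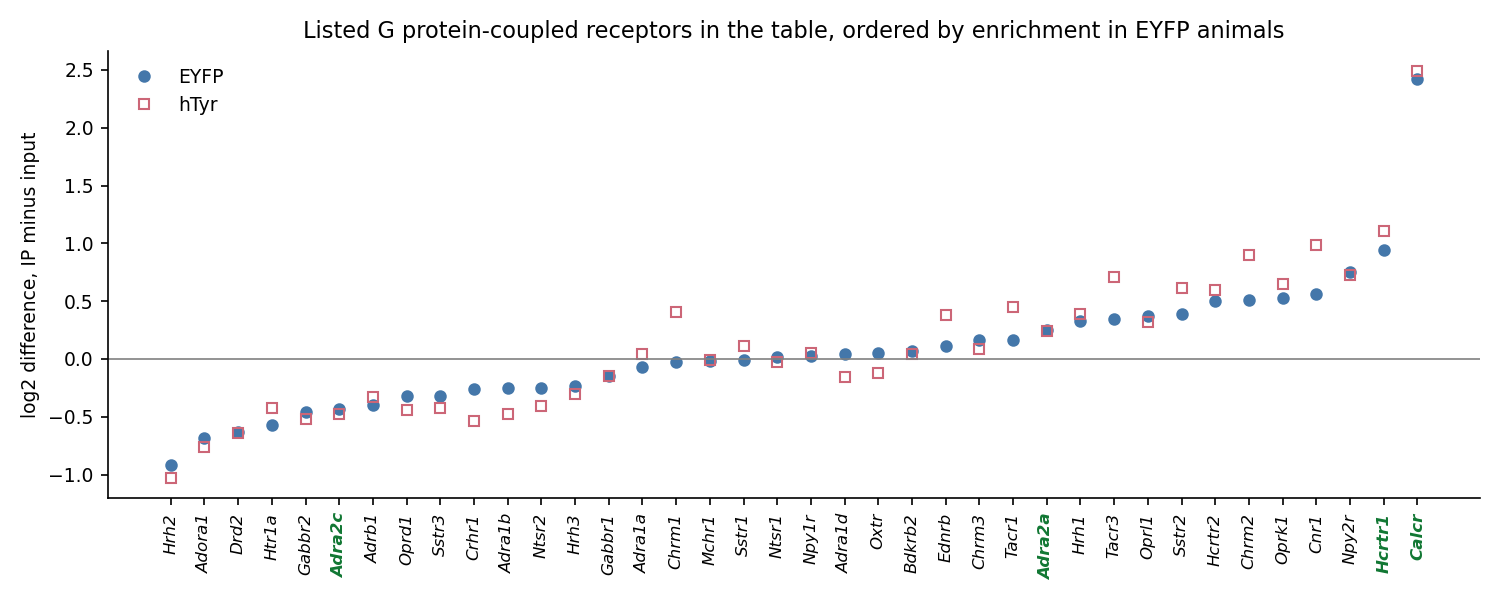
Log2 difference of IP minus input (vertical axis) for 38 listed G protein-coupled receptor genes ordered by their value in EYFP animals (filled blue circles), with the hTyr value as an open red square and the 4 receptors of interest named in green. Calcr at 2.42 and Hcrtr1 at 0.94 are at the right end and Adra2c at -0.43 is near the left end.

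The excess of Adra2a over Adra2c, in log2 CPM and not per length, differed in size between the fractions of each animal. Adra2a exceeded Adra2c by 1.17 ± 0.37 log2 CPM in IP (SD, n = 11) and by 0.47 ± 0.19 in input. In IP_504 and IP_510 the excess was 1.79 and 1.65, and in IP_511 and IP_505 it was 0.66 and 0.71. It was larger in IP than in input in 11 of 11 animals, by 0.70 ± 0.27 (0.18 to 1.16). The change was 0.68 ± 0.33 in EYFP (n = 6) and 0.73 ± 0.23 in hTyr animals (n = 5). This measure was chosen after the values of both genes were seen, so no p-value is given for it.

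Levels can be compared between genes only per length, here CPM per kilobase of the longest annotated transcript (4832 bases for Adra2a, 3445 for Adra2c, 3763 for Calcr and 2439 for Hcrtr1). In EYFP IP the log2 level per kilobase was 3.17 ± 0.26 for Adra2a, 3.03 ± 0.26 for Hcrtr1, 2.50 ± 0.23 for Adra2c and 1.43 ± 0.52 for Calcr (SD, n = 6). Adra2a and Hcrtr1, neighbours in that order, differed by 0.14 ± 0.10, and Adra2a was the higher in 5 of 6 libraries. Hcrtr1 exceeded Adra2c in 6 of 6, by 0.53 ± 0.39, and Adra2c exceeded Calcr in 5 of 6, by 1.07 ± 0.67. Calcr, first by its difference between IP and input, was the lowest of the 4 by level, and Dbh stood at 5.91 ± 0.53 on the same scale.

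The hTyr IP libraries had the order Adra2a (3.24 ± 0.20), Hcrtr1 (3.18 ± 0.44), Adra2c (2.54 ± 0.31) and Calcr (1.40 ± 0.62) in log2 level per kilobase (SD, n = 5). Adra2a was above Hcrtr1 in 3 of 5 of them, so these neighbours do not differ beyond their spread. In EYFP input Adra2c (2.93 ± 0.27) and Adra2a (2.92 ± 0.12) were level, with Adra2c the higher in 3 of 6 libraries, and Hcrtr1 (2.09 ± 0.14) and Calcr (-0.99 ± 0.32) followed. The hTyr input gave 3.03 ± 0.20 for Adra2c, 3.0 ± 0.09 for Adra2a, 2.07 ± 0.12 for Hcrtr1 and -1.09 ± 0.28 for Calcr. With the median transcript length Adra2a came first in input as well, at 3.12 in EYFP.

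The comparison of hTyr with EYFP asks whether the infusion went with a change in the receptors' RNA. In IP 0 of the 4 receptors passed, and 0 had an unadjusted p under 0.05 by limma or by limma voom. Of all genes 0.0556% passed (7 genes), and 6.19% had an unadjusted p under 0.05. The differences, hTyr minus EYFP, were 0.07 for Adra2a (SE 0.12, 95% interval -0.19 to 0.33, limma adjusted p = 0.952) and 0.04 for Adra2c (SE 0.14, -0.26 to 0.35, limma adjusted p = 0.978). For Calcr the difference was -0.03 (SE 0.27, -0.61 to 0.55, limma adjusted p = 0.991) and for Hcrtr1 0.15 (SE 0.18, -0.23 to 0.52, limma adjusted p = 0.923). As folds the intervals run from 0.874 to 1.26 for Adra2a and from 0.655 to 1.46 for Calcr, and they do not show that the levels were equal. EYFP and hTyr values overlap for each of the 4 receptors in IP, and hTyr IP lay wholly above EYFP IP in 0.389% of all genes and wholly below in 0.262%.

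The treatment difference was also fitted with the noradrenergic content of each library. The noradrenergic score, the mean log2 CPM of 12 noradrenergic genes with no receptor among them, was 6.08 ± 0.49 in hTyr IP (5.67 to 6.85, SD, n = 5) and 5.78 ± 0.31 in EYFP IP (5.40 to 6.21, n = 6). In limma with this score as a covariate the hTyr minus EYFP difference of Calcr was -0.43 (SE 0.16, limma adjusted p = 0.999, and 0.0136 before the adjustment), and those of Adra2a and Hcrtr1 changed sign, to -0.08 and -0.07. Th, a gene of the score, was higher in hTyr IP by 0.99 and Slc6a2, which drives the ribosome tag, lower by -0.39, and neither passed (limma adjusted p = 0.533 and 0.854). The glial score was 6.85 ± 0.24 in hTyr IP and 6.82 ± 0.20 in EYFP IP. Cerebellar Pcp2 and Gabra6 were lower in hTyr IP by -2.39 and -1.53 at an unadjusted p of 0.000878 and 0.00281 (limma adjusted p = 0.479 and 0.545), and in hTyr input by -1.33 and -1.46 (unadjusted p of 0.0151 and 0.0400, limma adjusted p = 0.990 for each). The third cerebellar marker, Calb1, was at -0.16 in IP and -0.33 in input. The part of this RNA in the receptors' values was not tested.

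**Figure D4:**
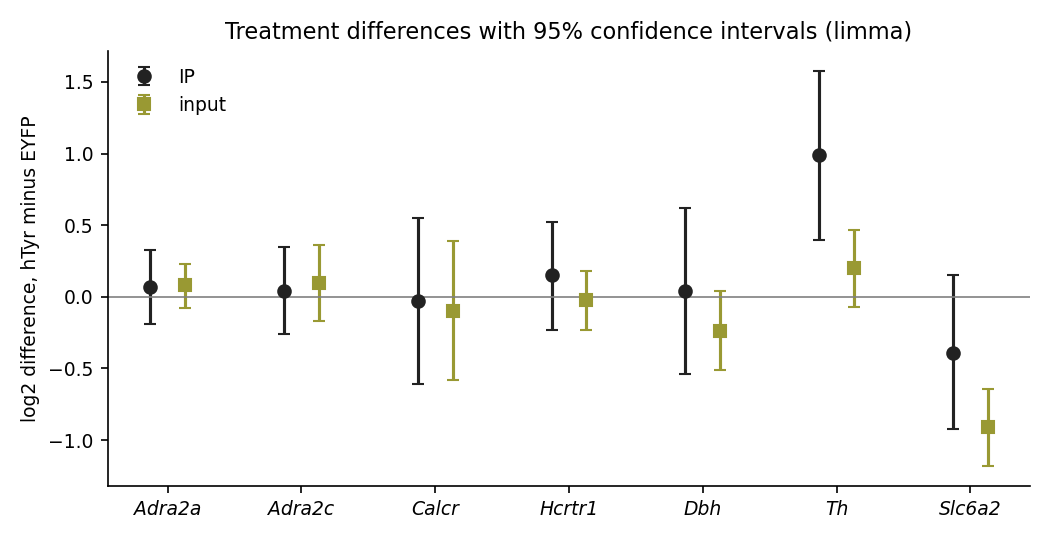
Log2 difference of hTyr minus EYFP with its 95% confidence interval from limma (vertical axis) in IP (black circles) and input (olive squares) for the 4 receptors and 3 noradrenergic genes. The intervals of the 4 receptors all include 0, and the widest is that of Calcr in IP, from -0.61 to 0.55.

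In input 0 of the 4 receptors passed as well (0 at an unadjusted p under 0.05), where 0.00794% of all genes passed and 3.03% had an unadjusted p under 0.05. The differences were 0.08 for Adra2a (SE 0.07, 95% interval -0.08 to 0.23), 0.10 for Adra2c (SE 0.13, -0.17 to 0.36), -0.10 for Calcr (SE 0.23, -0.58 to 0.39) and -0.02 for Hcrtr1 (SE 0.10, -0.23 to 0.18). The 1 gene that passed was Slc6a2 (-0.91, limma adjusted p = 0.0339). The hTyr effect in IP minus that in input was -0.01 for Adra2a, -0.05 for Adra2c, 0.07 for Calcr and 0.17 for Hcrtr1, with SEs of 0.15, 0.20, 0.37 and 0.21. Again 0 of 4 passed (0 at an unadjusted p under 0.05, where 3.31% of all genes had one; lowest limma adjusted p = 0.996), beside 0.00794% of all genes, or 0.0397% with the replicate block, where the lowest limma adjusted p of the 4 was 0.846.

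Across the 11 IP libraries 3 of the receptors went with the noradrenergic score once the mean of each treatment was removed. Pearson's r was 0.93 for Calcr (exact permutation p = 0.000266, adjusted 0.00213; Spearman's rho 0.85, exact permutation p = 0.00381). For Hcrtr1 r was 0.83 (exact permutation p = 0.00433, adjusted 0.0115; rho 0.79, exact permutation p = 0.0122). Adra2a had an r of 0.82 (exact permutation p = 0.00066, adjusted 0.00264; rho 0.85, exact permutation p = 0.00279). Adra2c did not follow the score (r = -0.11, exact permutation p = 0.778; rho -0.19, exact permutation p = 0.595). Per unit of the score Calcr moved by 1.32, Hcrtr1 by 0.73, Adra2a by 0.48 and Adra2c by -0.07. Without IP_501 and IP_504, the 2 farthest from the median score, r was 0.84, 0.71, 0.71 and -0.14 in the order Calcr, Hcrtr1, Adra2a and Adra2c. These relations, 8 in all with those that follow, were chosen after the data were seen, and values were exchanged within treatments in 86400 orders. How many of all genes reach such an r with the score was not counted, so the receptors are not shown to stand out.

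The IP level was also set against the input level of the same animal. Adra2c gave the highest r, 0.60 (exact permutation p = 0.0616, adjusted 0.123; rho 0.60, exact permutation p = 0.0546), which fell to 0.29 without the animals of IP_504 and IP_505. For Hcrtr1 r was 0.46 (exact permutation p = 0.159, adjusted 0.254), for Calcr 0.12 (exact permutation p = 0.72, adjusted 0.778) and for Adra2a -0.15 (exact permutation p = 0.69, adjusted 0.778), with rho at 0.47, 0.26 and -0.05 (exact permutation p = 0.136, 0.467 and 0.896). Without the 2 animals farthest from the median these were 0.42, 0.62 and 0.19. No receptor's relation to its own input held after adjustment.

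**Figure D5:**
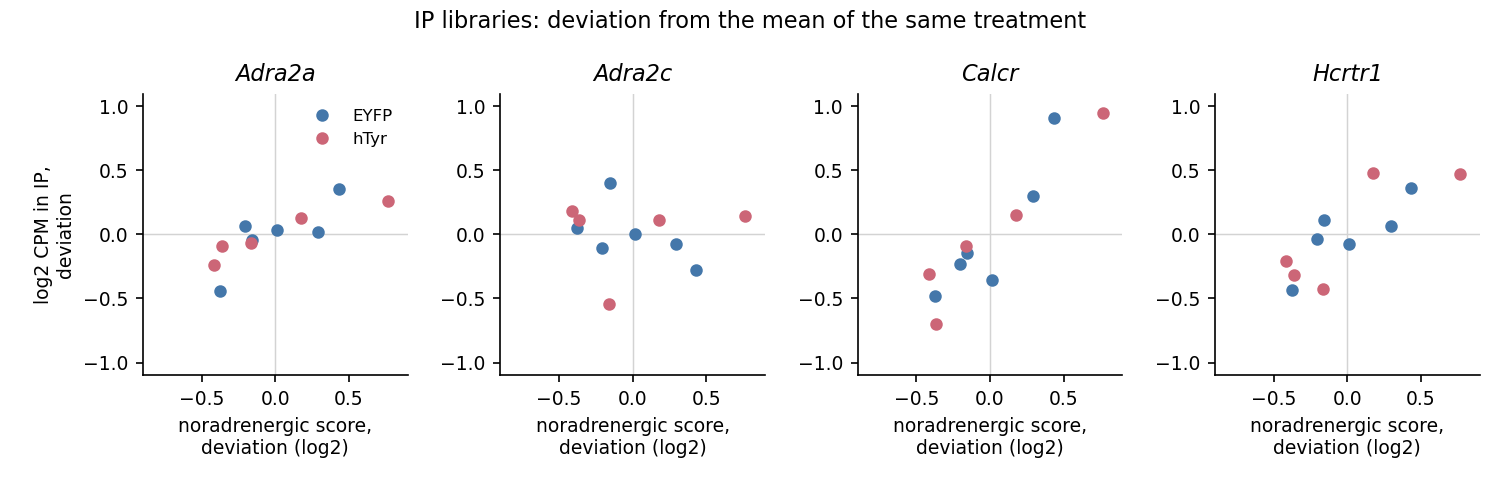
Level of each receptor in the 11 IP libraries (vertical axis, log2 CPM) against the noradrenergic score (horizontal axis, mean log2 CPM of 12 genes), both as the deviation from the mean of the same treatment, EYFP blue and hTyr red. Calcr rises most steeply, with r = 0.93, and Adra2c shows no slope, with r = -0.11.

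Genes whose pattern over the 11 IP libraries was most like each receptor's, by Pearson's r with the treatment mean removed, are given as a description. For Calcr these were Txnrd1 (r = 0.969, rho 0.973), Slc6a2 (0.956, rho 0.945) and Gnas (0.954, rho 0.945), where Gnas encodes the stimulatory Gα subunit. Hcrtr1 was most like Gdap1l1 (0.958), Adamtsl2 (0.950) and Rcn1 (0.933). Adra2a was most like As3mt (0.935), Cd44 (0.932) and Ppp3cc (0.928), and Adra2c like Gm10432 (0.972), Crat (0.961) and Sephs2 (0.945). Among the receptors r was 0.823 between Adra2a and Hcrtr1, 0.794 between Calcr and Hcrtr1 and 0.790 between Adra2a and Calcr, and Adra2c had -0.203 with both Adra2a and Calcr and 0.229 with Hcrtr1. All of these share the libraries and their noradrenergic content.

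The other genes of the pathway fall into 7 lists with 91 genes in the table. In EYFP IP 25.3% of the 91 were called higher and 28.6% lower, close to the 28.5% and 28.1% of all genes, and in hTyr IP 28.6% and 31.9%, beside 27.4% and 27.0% of all genes. The counts of the single lists below describe their genes only.

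Among the other adrenoceptors none passed as higher in IP. Of 7 listed, 4 are in the table, and 2 fell in each treatment with 0 higher (median -0.16 in EYFP). Adrb1, the β1-adrenoceptor, stood at 3.51 ± 0.30 in EYFP IP and 3.92 ± 0.17 in EYFP input (SD, n = 6), a difference of -0.40 (limma adjusted p = 0.0148). Adra1b differed by -0.25 in EYFP (limma adjusted p = 0.0401) and by -0.48 in hTyr animals (limma adjusted p = 0.0169). Adra1a and Adra1d did not pass, at -0.07 and 0.04.

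Of 8 listed related receptors and partners of the 4, 7 are in the table, with 3 higher, 2 lower and 2 not past the threshold in each treatment. Oprk1, the κ-opioid receptor, rose by 0.53 in EYFP and 0.65 in hTyr IP (limma adjusted p = 0.0177 and 0.00859). Hcrtr2, the other orexin receptor, rose by 0.50 and 0.60 (limma adjusted p = 0.00469 and 0.0413). The difference between both orexin receptors was not tested. Oprl1, the nociceptin receptor, rose by 0.37 in EYFP animals, and Oprd1, the δ-opioid receptor, fell by 0.32. Ramp2, a partner of calcitonin-family receptors, fell by 0.46 in EYFP (limma adjusted p = 0.00879) and was at -0.35 in hTyr animals (limma adjusted p = 0.143). The RAMP genes stood in EYFP IP at 5.81 ± 0.24 log2 CPM for Ramp1, 5.32 ± 0.23 for Ramp3 and 2.98 ± 0.21 for Ramp2. In EYFP animals the differences from input of Ramp1 and Ramp3, -0.13 and 0.02, did not pass. In hTyr animals Ramp1 fell by 0.28 (limma adjusted p = 0.0479).

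Of 9 ligand genes listed 7 are in the table, with 3 higher and 0 lower in IP in each treatment. Calca, which encodes calcitonin and the calcitonin gene-related peptide, rose from 3.99 ± 0.21 to 5.64 ± 0.38 log2 CPM in EYFP animals (SD, n = 6), by 1.66 (SE 0.15, limma adjusted p = 9.04e-07), and by 1.73 in hTyr animals (SE 0.20, limma adjusted p = 1.81e-06). The gene's count does not tell its peptides apart. The opioid peptide genes Pdyn and Penk rose by 0.57 and 0.29 in EYFP and by 0.86 and 0.28 in hTyr animals. Hcrt, the orexin gene of the hypothalamus, had an SD of 2.95 in EYFP IP around a mean of 1.00 and did not pass.

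Gα subunits carry the signals of these receptors. Of 9 Gα genes in the table (10 listed) 2 rose and 3 fell in EYFP IP, and 2 rose and 4 fell in hTyr IP. Gnai3, an inhibitory subunit of the class that Adra2a uses, rose by 0.62 in EYFP (limma adjusted p = 0.000245) and 1.04 in hTyr animals (limma adjusted p = 2.81e-07). Gnai2 and Gnao1, of the same class, fell by 0.37 and 0.31 in EYFP animals. Gnal, the olfactory form of the stimulatory subunit, fell by 0.49.

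Among effectors 16 of 19 listed are in the table, with 4 higher and 3 lower in each treatment. The phospholipases of the Gq pathway that Hcrtr1 uses, Plcb4 and Plcb1, rose most, by 1.30 and 1.28 in EYFP (limma adjusted p = 1.70e-05 and 1.25e-06) and by 1.68 and 1.47 in hTyr animals. The adenylyl cyclase Adcy5 fell by 0.73 and Adcy1 by 0.60 in EYFP animals. Kcnj3, a subunit of the potassium channel that α2-adrenoceptors open, is smaller in change and outside the naming rule, chosen after its value was seen: it rose by 0.38 in EYFP (limma adjusted p = 0.00211) and 0.46 in hTyr animals (limma adjusted p = 0.00164).

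Of genes that end receptor signals 22 are in the table (25 listed), with 6 higher and 8 lower in EYFP IP and 7 higher and 10 lower in hTyr IP. Rgs17, a regulator that speeds the shutdown of Gα subunits, rose by 0.72 in EYFP IP, and Rgs9 by 0.61. Grk5 and Adrbk2, kinases that mark active receptors for arrestin, fell by 0.67 and 0.55. Of 26 other peptide, amine and hormone receptors in the table (40 listed) 5 rose and 8 fell in EYFP IP, and 7 rose and 8 fell in hTyr IP. Cnr1, the cannabinoid receptor, rose by 0.56 in EYFP and 0.99 in hTyr animals, and Chrm2, a muscarinic receptor, by 0.51 and 0.90. Hrh2 fell by 0.92, Adora1, an adenosine receptor, by 0.68 and Drd2, a dopamine receptor, by 0.63 in EYFP animals.

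Between hTyr and EYFP 0 of the 91 genes of these 7 lists passed, in IP or in input. In IP 5 of 91 (5.49%) had an unadjusted p under 0.05, beside 6.19% of all genes: Gnai3 (0.24), Rgs5 (0.27) and Tacr3 (0.34) were higher in hTyr, and Adcy6 (-0.30) and Rgs16 (-0.28) lower, with limma adjusted p from 0.754 to 0.791. In input Cnr1 was the 1 such gene of 91 (1.1%, beside 3.03% of all genes), at -0.38 (limma adjusted p = 0.990). These genes, the markers of other cells and Oprd1, Ramp1, Ramp3 and Penk above were chosen for naming after their values were seen.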

How the data were processed

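Libraries were prepared by a company, per the labels. Per the submitters' processing notes STAR, featureCounts and the mm10 build were used, with versions not given in the sources used here. The authors deposited log2 values for 12596 genes in 22 libraries. They are log2 CPM: with a pseudocount that averaged 2.00 reads, 100% of the values came back as whole reads (tolerance 0.1 read), which gave the depths. The filter and scaling behind them are not given in the sources used here, and reads carry no molecular identifiers, so depth speaks of counting error only.

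Each comparison was fitted on the deposited values over all genes with limma 3.58.1 in R 4.3.3 (eBayes with trend, two-sided, Benjamini-Hochberg, threshold 0.05), after tests on simulated data. Groups came from the treatment and fraction labels. Libraries with the same number in their titles were taken as 1 animal, and their deviations from group means correlated in each of the 11 pairs (mean r = 0.448, 0.279 to 0.626). For hTyr against EYFP within a fraction each animal gives 1 library, and p-values measure the spread between animals. The main fits of IP against input and of the interaction took the libraries of an animal as separate. Their p-values measure the spread between libraries, and only the replicate block uses the pairing. Alternatives were voom, no trend, quantile normalization, a pseudocount of 5 CPM, a shared spread, the upper 75% of genes by mean, the replicate block, noradrenergic and glial scores as covariates, and leaving out each animal. Lengths came from GENCODE M21. Figures used Python 3.11.15. The naming rule took the receptors whatever their values, at most 4 genes of each list in each comparison by size of difference, and the 3 genes most alike. The members and lists were chosen with earlier results of these data known.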

Additional observations from a re-analysis of the deposited data

Results flagged for a closer look

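Adra2c in the hTyr IP library IP_510 stood at 3.79 log2 CPM (262 reads), far below the next of its 5 libraries at 4.44. That gap is 0.901 of the range of the group. Among 16 groups of libraries, 4 receptors in 4 groups, this was the 1 such case, where chance gives about 0.8. The input library of the same animal stood at 4.65 (492 reads), within its group's range of 4.61 to 5.12. The noradrenergic score of that IP library was 5.92 and its glial score 7.02, both inside the ranges of the hTyr IP group, and no explanation was tested.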

How the results depend on the processing

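IP against input kept its call and direction for Calcr, Hcrtr1 and Adra2c under each alternative run, and 3 or 4 of the 4 receptors passed. The log2 difference of Calcr ranged from 1.14 (pseudocount of 5 CPM) to 2.68 in EYFP and from 1.16 to 2.65 in hTyr animals. Adra2a, besides the values given with it, passed in EYFP with a shared spread (adjusted p = 0.0381) and in hTyr with the upper 75% of genes (0.0472), and with quantile normalization it was 0.20 (0.103) in EYFP and 0.16 (0.173) in hTyr animals. Libraries of an animal deviated together, and the replicate block changed no other call of a receptor.

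No receptor passed between hTyr and EYFP, or in the interaction, under any alternative run. Some of the small differences changed sign, while those of Hcrtr1 in the interaction and of Adra2a and Adra2c in input did not. In IP Calcr came to 0.02 with voom and 0.00 with the glial score as covariate, and Adra2a to -0.08 and Hcrtr1 to -0.07 with the noradrenergic score. In input Calcr came to 0.13 and Hcrtr1 to 0.00 with quantile normalization, and Calcr to 0.06 with the noradrenergic score. In the interaction Calcr came to -0.14 with quantile normalization. Leaving out 1 animal gave, in IP, -0.02 to 0.14 for Adra2a, -0.01 to 0.18 for Adra2c and -0.27 to 0.15 for Calcr. In input it gave -0.07 to 0.02 for Hcrtr1, and in the interaction -0.09 to 0.10 for Adra2a, -0.13 to 0.04 for Adra2c and -0.25 to 0.23 for Calcr. The cause of these changes was not tested.

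Over all genes the count in IP (7) went to 14 with a shared spread and to 3 to 11 without 1 animal. In input the count (1) went to 0 with a shared spread, with the upper 75% of genes and with the noradrenergic score, and to 0 to 2 without 1 animal. The interaction count (1) went to 5 with the replicate block and to 0 to 5 without 1 animal. No animal is in both treatments, so hTyr against EYFP within a fraction has no blocked fit. Calcr in input, at 24 to 44 reads, is where depth limits precision most.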
